A study of Homo sapiens with 12 samples.

Results

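The interaction of venetoclax and an ERK inhibitor was measured as the departure of the combined treatment from the sum of both single-drug effects. For each gene it is the difference of differences (combination minus venetoclax) minus (ERKi minus DMSO), on the log2 scale, over all 12 libraries. A positive value places the combination above the level that both single effects add up to, and a negative value below it. All genes were taken, without choosing any by their values: 15173 of the 54628 gene symbols in the count table had enough reads to be tested.

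The cells were OCI-AML3, an established human acute myeloid leukaemia line, and every library is poly(A) RNA collected after 24 h. The 4 groups of 3 libraries were DMSO, the solvent control; venetoclax, called ABT199 in the labels; ERKi, an ERK inhibitor the labels give as compound 27; and the combination of both drugs. All groups share the single cell line, and drug doses are not in the labels. The labels do not tell whether the replicates are separate cultures. The p-values speak of the scatter among these libraries only, and that scatter may be technical. Because the samples are bulk cultures, fewer cells of a type and less RNA per cell cannot be told apart.

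Venetoclax is a BH3 mimetic: it occupies the groove of BCL2, the outer-membrane protein that restrains apoptosis, and frees BH3-only proteins bound there. The ERK kinases are the last enzymes of the RAS-RAF-MEK cascade, and they drive immediate early genes, MYC and entry into the cell cycle, and destabilise the BH3-only protein BIM. The series asks how ERK inhibition overcomes resistance to venetoclax, with mitochondrial fission as the proposed link. A departure from the sum marks genes whose RNA under both drugs differs from the level that both single effects add up to. Such a gene can still stand at the level of a single drug.

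Library totals ran from 19199296 to 21275065 counts. The line's markers CD33, ANPEP, PTPRC, SPI1, HOXA9 and MEIS1 were detected in every library. Their summed level ran from 721 to 797 CPM without ERKi, from 1373 to 1413 with ERKi alone and from 1217 to 1277 with the combination. DMSO replicate 1 stood apart: set against the other DMSO libraries its chi-square over degrees of freedom was 16.3 and 15.4, where all other replicate pairs gave 2.26 to 5.12. Without it 3306 genes were called above the sum and 2875 below. List counts without it are given below wherever they moved a reading.

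By edgeR's quasi-likelihood test at a Benjamini-Hochberg adjusted p under 0.05, the interaction was called for 39.2% of the tested genes. Of these 5951 genes, 3227 (21.3% of those tested) lay above the sum and 2724 (18.0%) below it. Most departures were small: 86.2% were under 2-fold, and the median size of a called departure was 0.50 on the log2 scale. At least 2-fold departures were called for 368 genes above (2.43%) and 455 below (3.0%). In every fit that left out 1 library, 4433 genes kept their call and direction. The sum can also be taken on the linear CPM scale, and 3221 of the genes above and 2719 of those below were on the same side of that sum. Where venetoclax alone changes a gene little, both sums nearly coincide, as for MCM2 (57.5 and 56.7 CPM). This agreement was therefore largely fixed in advance.

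The single steps show where the departure came from in the arithmetic. Venetoclax against DMSO was called for 61 genes (0.402%) and had a median size of 0.09 on the log2 scale, near its median SE of 0.0947. The same drug added to ERKi was called for 7717 genes (50.9%), with a median size of 0.30. ERKi was called for 69.7% of genes without venetoclax and for 66.2% with it, with median sizes of 0.54 and 0.47. In the sum of squares of log2 CPM, ERKi held 64.7%, venetoclax 8.24%, the interaction 8.19% and the spread within groups 18.9%. Each drug's term here is its step averaged over both settings of the other drug. The venetoclax term therefore includes its larger step on top of ERKi and is not the share of venetoclax alone.

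Scaling sets the zero of this measure. With TMM factors the median interaction over all genes was 0.01, and 54.2% of the called genes lay above the sum. With library totals alone the median was -0.10, and 2334 genes lay above and 3765 below, so that 38.3% of called genes were above. Departures below are relative to the TMM zero, and the medians of 7 of the 53 gene lists change sign under at least 1 other scaling. Each list count below stands against 21.3% of all tested genes above the sum and 18.0% below it.

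**Figure D1:**
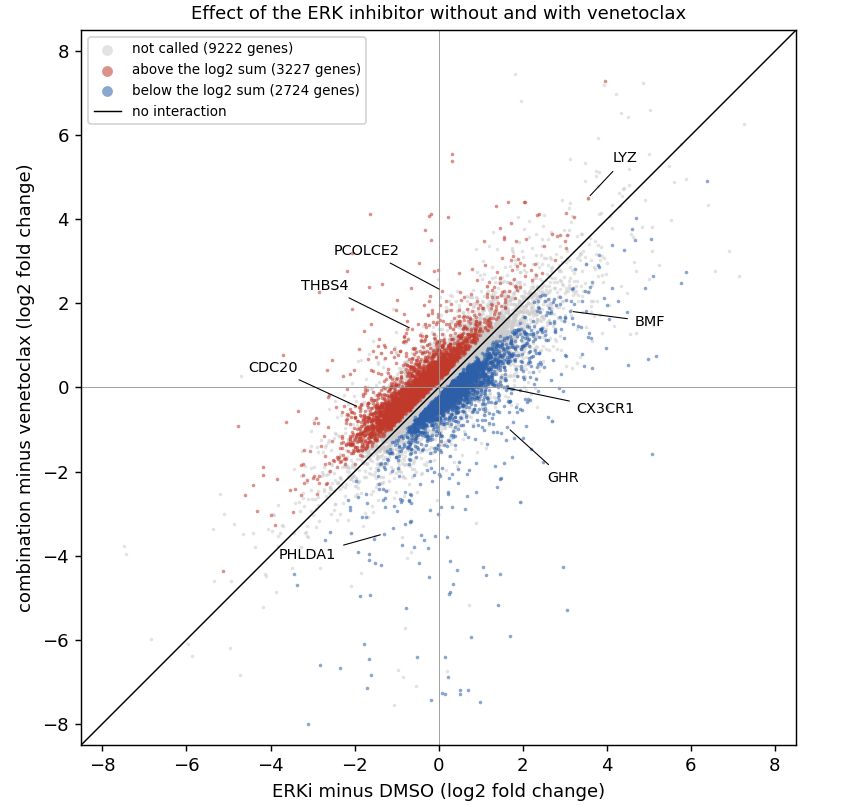
Each point is a tested gene. The horizontal axis is the log2 fold change of ERKi against DMSO and the vertical axis that of the combination against venetoclax, which share no library. Genes called above the sum (3227, red) lie over the diagonal and genes called below it (2724, blue) under it. Vertical distance from the diagonal is the size of the interaction.

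The effect of ERKi without venetoclax and with it sorts the called genes into patterns, as a description with no test, since the interaction is itself the difference of these steps. A smaller effect of ERKi in the same direction was the most frequent of the named patterns, with 1935 genes (32.5% of called genes). Of these, 1246 had fallen with ERKi and lay above the sum, and 689 had risen with ERKi and lay below. A larger effect in the same direction held for 920 genes, 461 above and 459 below. For 519 genes the ERKi step was called in opposite directions, 254 above and 265 below. In 188 genes an at least 2-fold ERKi step shrank to within 0.3 of 0 on the log2 scale, and in 115 genes an at least 2-fold step appeared where ERKi alone was within 0.3 of 0. The other 2274 called genes had an ERKi step that was not called on both sides of the comparison or met no other pattern.

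Mitosis and G2/M genes held the largest share above of any list, 96.2%. Replication licensing and G1/S, at 82.5%, came after ribosome biogenesis at 85.0%. In both cell cycle lists the level of the combination lay between those of ERKi and DMSO. Of 52 genes of mitosis and G2/M, 50 lay above the sum and 1 below, against 21.3% and 18.0% of all genes, with a median interaction of 0.72. The median ERKi step of that list was -1.35 without venetoclax and -0.62 with it. Of 40 genes of replication licensing and G1/S, 33 lay above and none below, with a median of 0.58 and ERKi steps of -1.72 and -1.14. The counts were 50 and 36 without DMSO replicate 1.

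CDC20, the activator of the anaphase-promoting complex (chromosome 1, 43358981 to 43363203, GRCh38.p14), stood at 203, 164 and 169 CPM with DMSO and 184, 188 and 174 with venetoclax. It stood at 47.5, 49.1 and 49.5 CPM with ERKi and 128, 128 and 135 with the combination. The 3 combination libraries lay between the ERKi and the DMSO libraries without overlap. The sum of both single effects gives 49.6 CPM, and the interaction was 1.39 (SE 0.0961, adjusted p = 5.95e-08).

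MCM2, a subunit of the replicative helicase (chromosome 3, 127598411 to 127622436), stood at 266, 245 and 242 CPM with DMSO and between 247 and 253 in the 3 venetoclax libraries. Its levels were 56.8, 59.3 and 57.1 CPM with ERKi and 104, 109 and 112 with the combination. The combination again lay between ERKi and DMSO, against 57.5 CPM for the sum, with an interaction of 0.91 (SE 0.0673, adjusted p = 1.12e-07). NCAPD2, a condensin subunit (chromosome 12, 6494102 to 6531955), had an interaction of 0.80 and went from 213 ± 3.96 CPM with ERKi to 366 ± 7.35 with the combination (SD, n = 3). DMSO had 418 ± 11.9 and venetoclax 412 ± 3.58 CPM.

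The promoters of CDC20, NCAPD2 and MCM2 are shown as examples from the mitosis and licensing lists. They were chosen because they hold the elements marked below, so these matches were fixed by the choice. The sequences are from RefSeq (GRCh38.p14), plus strand, 5' to 3', from 250 bases before to 50 bases after the gene start, at chr1:43358731-43359030, chr12:6493852-6494151 and chr3:127598161-127598460. Capitals mark matches on either strand. In the CDC20 and NCAPD2 promoters they mark TTTGAA, the core of the cell cycle homology region, and the CCAAT box. In the MCM2 promoter they mark 2 overlapping E2F sites.
CDC20: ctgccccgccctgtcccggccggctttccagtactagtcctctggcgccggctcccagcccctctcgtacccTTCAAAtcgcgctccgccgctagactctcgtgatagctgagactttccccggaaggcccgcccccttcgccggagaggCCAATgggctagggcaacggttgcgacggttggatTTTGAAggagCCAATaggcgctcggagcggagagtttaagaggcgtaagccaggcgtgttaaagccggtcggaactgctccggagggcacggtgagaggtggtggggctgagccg
NCAPD2: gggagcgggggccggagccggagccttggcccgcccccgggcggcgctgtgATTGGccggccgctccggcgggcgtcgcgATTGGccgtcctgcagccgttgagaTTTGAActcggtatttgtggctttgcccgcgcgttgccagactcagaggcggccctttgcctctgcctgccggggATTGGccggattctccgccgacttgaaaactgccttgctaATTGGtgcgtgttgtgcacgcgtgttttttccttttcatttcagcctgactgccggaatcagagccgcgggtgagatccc
MCM2: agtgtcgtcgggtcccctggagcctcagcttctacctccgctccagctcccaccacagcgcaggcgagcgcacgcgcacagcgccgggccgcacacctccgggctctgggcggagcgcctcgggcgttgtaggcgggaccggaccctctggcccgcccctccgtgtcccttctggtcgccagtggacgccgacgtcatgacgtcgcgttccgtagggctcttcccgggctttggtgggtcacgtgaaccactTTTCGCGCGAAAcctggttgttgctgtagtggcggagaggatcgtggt

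Such promoters were available for 11022 tested genes. TTTGAA was present in 9.93% of all of them and in 73.3% of the 45 promoters of the mitosis list, and CCAAT in 36.5% and 75.6%. Both together were present in 4.05% of all promoters and in 57.8% of the mitosis promoters. An E2F site, searched as TTTCCCGC, TTTCGCGC, TTTGCCGC or TTTGGCGC on either strand, was present in 5.47% of all promoters and in 18 of the 36 licensing promoters. Over all genes called above the sum the shares were near the background, with TTTGAA in 9.92%, CCAAT in 39.6% and an E2F site in 6.41%. Among genes called below, TTTGAA was in 10.7%. A match is a description of the letters and not of a bound site.

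Regulators of the cycle did not all share this side. MYBL2, the transcription factor of the mitotic programme, stood at 255, 214 and 206 CPM with DMSO and 219.7, 229 and 224 with venetoclax. It was at 52.4, 53.2 and 51.9 CPM with ERKi and at 123, 122 and 122 with the combination, an interaction of 1.23 (SE 0.0896, adjusted p = 1.04e-07). RB1, the retinoblastoma protein that holds E2F factors inactive, had an interaction of -0.72 (SE 0.098, adjusted p = 3.56e-05). Its level was 63.3, 69.8 and 66.3 CPM with the combination and 96.1 to 119 in the other 9 libraries. The ranges do not overlap, and neither single drug was called for RB1. CDKN2B, the CDK4/6 inhibitor p15, stood at 14.3, 15.7 and 12.2 CPM with ERKi and at 2.83, 2.76 and 2.93 with the combination. It was at 0.77 to 1.55 CPM in the DMSO and venetoclax libraries, and its interaction was -2.27 (SE 0.304, adjusted p = 3.24e-05). Of 32 genes of homologous recombination and Fanconi repair, 18 lay above and 2 below, and of 25 genes of nucleotide synthesis 17 and 1.

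**Figure D2:**
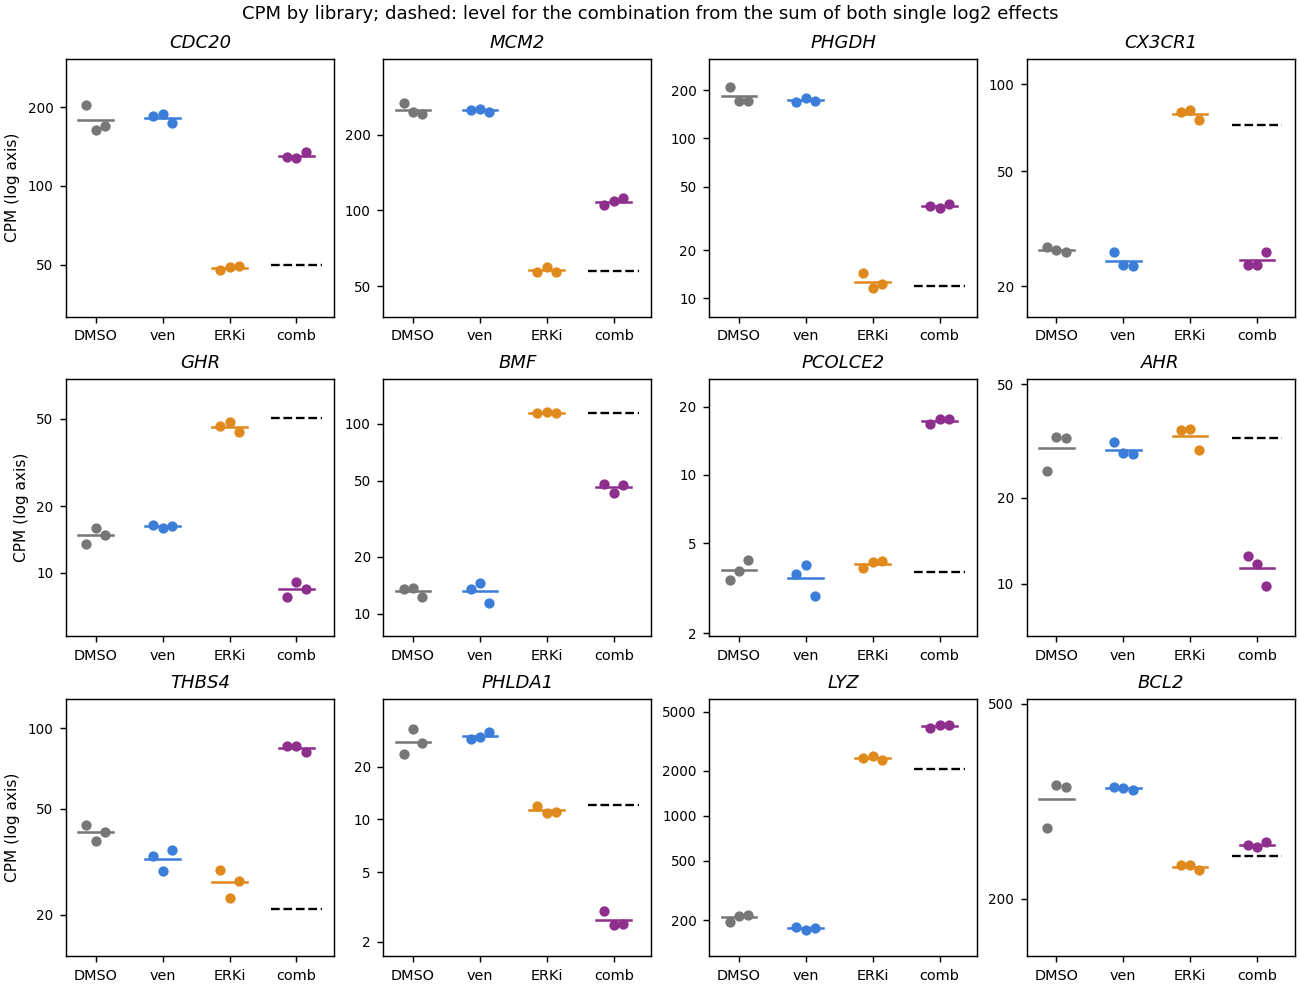
CPM on a log axis for 12 genes. Each point is a library, each solid line a group mean (ven, venetoclax; comb, combination), and the dashed line is the level that the sum of both single log2 effects gives for the combination. CDC20, MCM2 and PHGDH lie above the dashed line but under DMSO, CX3CR1 in the combination overlaps venetoclax and lies just under DMSO, PCOLCE2 and AHR moved in the combination libraries, and BCL2 lies within 0.08 of the line on the log2 scale.

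Of 40 ribosome biogenesis genes, 34 lay above the sum and 1 below (median 0.45), and the ERKi step was -1.02 without venetoclax and -0.53 with it. Splicing factors (23 above and 2 below of 37), glycolysis (15 and 0 of 21), proteasome subunits (21 and 2 of 38) and aminoacyl-tRNA synthetases (12 and 0 of 20) had medians of 0.27, 0.36, 0.26 and 0.21. With library totals the proteasome count above was 15 and that of the synthetases 9. The E-box CACGTG, the site of MYC and its partners, was present in 39.4% of the 33 ribosome biogenesis promoters, 10.1% of all promoters, 12.6% of those of genes above the sum and 9.22% below.

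Cytosolic ribosomal proteins differed in form. Of 58, 31 lay above and 5 below the sum, but their median ERKi step was positive, 0.16 without venetoclax and 0.43 with it. RPL28 stood at 491, 394 and 378 CPM with DMSO, 389.6, 408 and 391 with venetoclax, 479.9, 528 and 519 with ERKi and 807, 775 and 851 with the combination. Only the combination stands apart, since DMSO replicate 1 lies within the ERKi range, and the interaction was 0.76 (SE 0.105, adjusted p = 4.23e-05). RPS25 lay below the sum, at -0.45 (SE 0.0649, adjusted p = 6.51e-05). With library totals 22 ribosomal protein genes were above and 10 below, and the median was 0.17 without DMSO replicate 1. This library was the highest of the DMSO group in the list's median, at 0.13 against -0.06 in both others.

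Of 17 serine and one-carbon enzymes 10 lay above the sum and 1 below, and of 18 amino acid transporters 6 and 3. PHGDH, the first enzyme of serine synthesis, stood at 209, 171 and 172 CPM with DMSO, 168, 179.7 and 170.4 with venetoclax, 14.3, 11.6 and 12.3 with ERKi and 37.8, 36.9 and 38.9 with the combination. The combination libraries were over every ERKi library and under every DMSO library, with an interaction of 1.66 (SE 0.118, adjusted p = 7.13e-08). SLC7A5, the large neutral amino acid transporter LAT1, had an interaction of 0.997, with a mean of 29.8 CPM for ERKi and 62.9 for the combination.

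SLC38A1, a glutamine transporter, lay below the sum. Its levels were 58, 74.6 and 74.6 CPM with DMSO, 71.2, 66.5 and 71.8 with venetoclax, 37.4, 39.5 and 36.5 with ERKi and 11.5, 9.91 and 11.1 with the combination. Each combination library was under every other library, and the interaction was -1.82 (SE 0.127, adjusted p = 6.61e-08). STC2, a secreted glycoprotein of the stress response, was at 9.37 to 11.4 CPM without ERKi, 1.37, 0.55 and 2.19 with ERKi and 0.05, 0.22 and 0.05 with the combination. Its interaction was -3.77 (SE 0.605, adjusted p = 0.000161), resting on a few reads in the combination. The ATF4 stress list held 2 genes above and 5 below of 16.

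**Figure D3:**
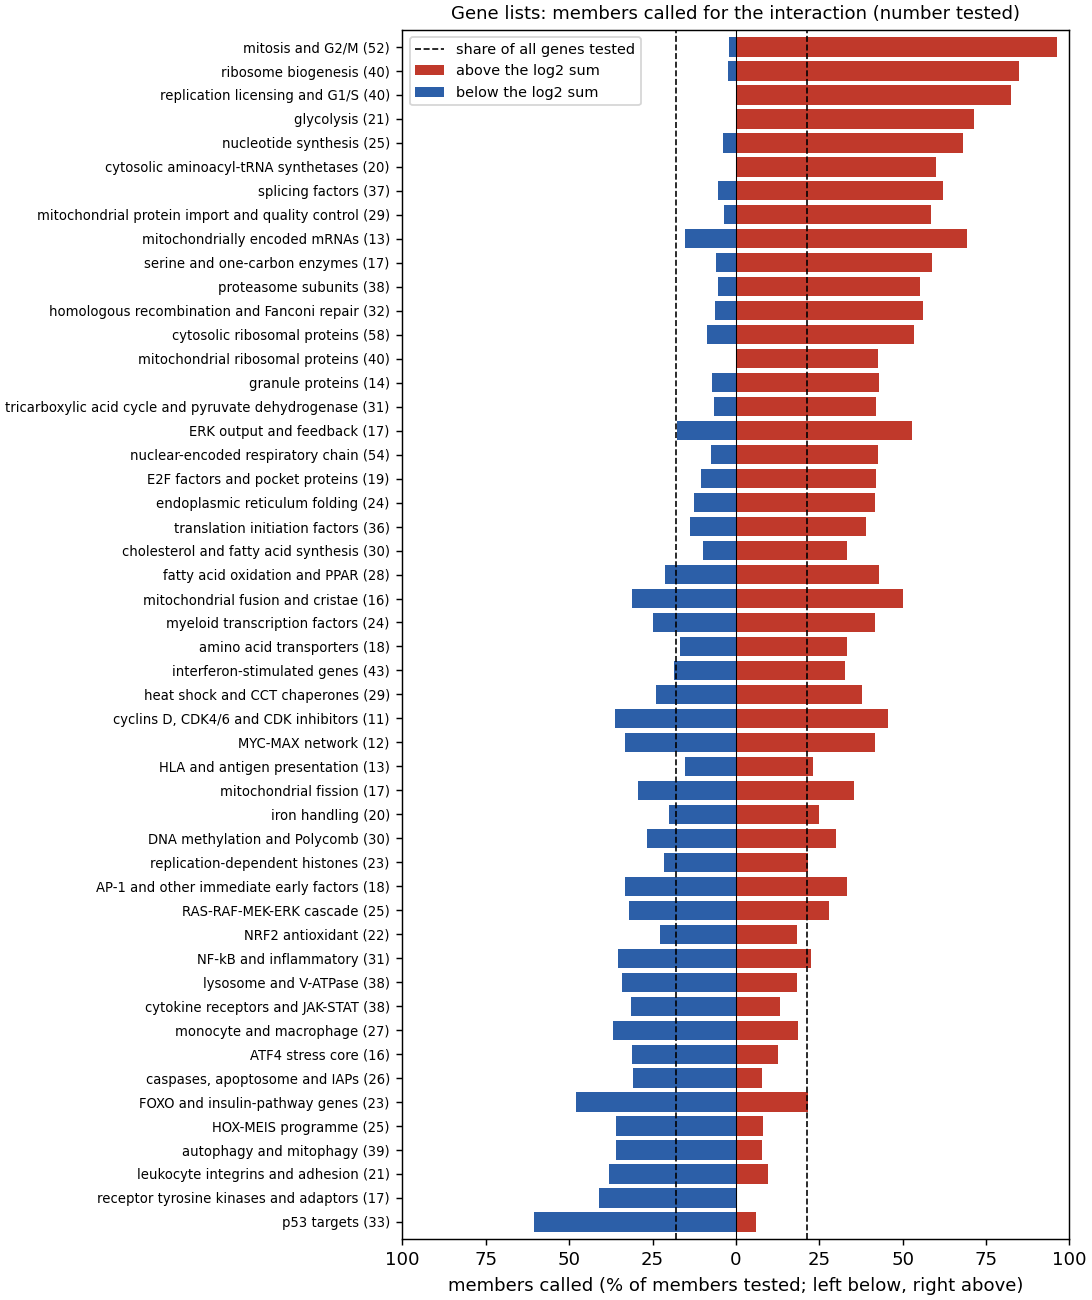
Share of each list's tested members called above (right) or below (left) the sum, for the 50 lists with at least 11 tested members, whose number stands in brackets. Dashed lines are the shares over all tested genes, 21.3% above and 18.0% below. Mitosis and G2/M has the largest share above and p53 targets the largest share below among the lists drawn.

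Of 54 nuclear-encoded respiratory chain genes 23 lay above and 4 below (median 0.20), of 29 genes of mitochondrial protein import and quality control 17 and 1 (median 0.38), and of 40 mitochondrial ribosomal proteins 17 and 0 (median 0.24). With library totals the last count was 10 and 3, and its median was 0.13 without DMSO replicate 1. Among 17 fission genes 6 lay above and 5 below, with a median of 0.02 that changes sign with library totals (-0.09). Among 16 fusion and cristae genes 8 lay above and 5 below.

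DNM1L, the fission GTPase Drp1 (chromosome 12, 32679301 to 32745650), stood at 127, 144 and 139 CPM with DMSO, 132, 141 and 140.1 with venetoclax, 87.5, 90.7 and 90.7 with ERKi and 83.9, 87.4 and 87.5 with the combination. The ERKi and combination libraries are both under the other 6 and overlap each other, and the interaction of -0.07 (SE 0.0731, adjusted p = 0.499) was not called. FIS1 lay above the sum at 0.54, and the fusion GTPase MFN2 at 0.42 (adjusted p = 0.00538 and 0.000206). MFF, a receptor for Drp1, was at -0.23 (adjusted p = 0.0191), a call lost without venetoclax replicate 1 or 2 and with no filter on low counts. OPA1 was at -0.03 and not called.

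RNAs encoded by mitochondrial DNA were also above, 9 of 13, with 2 below and a median of 0.35. COX3, a cytochrome oxidase subunit, stood at 4080, 3338 and 3372 CPM with DMSO and 3574, 3643 and 3737 with venetoclax. It was at 5516, 4852 and 5698 CPM with ERKi and at 9706, 10430 and 9231 with the combination. Each combination library was above all others, with an interaction of 0.85 (SE 0.0999, adjusted p = 9.36e-06). ND3 was an exception, at -0.81 (SE 0.124, adjusted p = 0.000113). With library totals the count above was 5 of 13, and without DMSO replicate 1 it was 7.

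Of 9 BH3-only and effector genes of the BCL2 family, 2 lay above the sum and 3 below. Of 6 survival genes none was called by edgeR, DESeq2 or limma-voom, and 1 had an unadjusted p under 0.05 in edgeR. BCL2, the target of venetoclax, stood at 279.5, 342 and 339 CPM with DMSO and 338, 337 and 334 with venetoclax. It was at 234, 234 and 229 CPM with ERKi and 258, 255 and 261 with the combination, an interaction of 0.08 (SE 0.0831, adjusted p = 0.484). MCL1 was at -0.12 and BCL2L1 at 0.20, with adjusted p of 0.108 and 0.225. Without DMSO replicate 1, 1 of the 6 was called above, and with library totals 1 was called below.

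BMF, a BH3-only protein that can be released from the cytoskeleton (chromosome 15, 40087890 to 40108879), stood at 13.5, 13.7 and 12.2 CPM with DMSO and 13.5, 14.6 and 11.4 with venetoclax. It was at 114, 115 and 113 CPM with ERKi and 48.3, 43.4 and 47.4 with the combination. The combination lay between ERKi and DMSO without overlap, and the interaction was -1.30 (SE 0.107, adjusted p = 3.13e-07). BCL2L11, which encodes BIM, stood at 142, 154 and 152 CPM with DMSO, 144, 137 and 135 with venetoclax, 233, 234 and 219 with ERKi and 141, 148 and 142 with the combination. The ERKi libraries alone stand apart, and the combination overlaps the untreated range (-0.56, SE 0.0671, adjusted p = 1.01e-05). BBC3, which encodes PUMA, was at -0.58, and BID at 0.51. The other gene above was the effector BAK1, at 0.27 (adjusted p = 0.0237), a call lost with library totals and without venetoclax replicate 3, ERKi replicate 3, or combination replicate 2 or 3. PMAIP1, which encodes NOXA, was at -0.35 and missed the threshold (adjusted p = 0.0517).

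Of 26 genes of caspases, apoptosome and IAPs, 2 lay above and 8 below, and with library totals 0 and 13. BIRC2 (-0.57), CASP10 (-0.69), CASP4 (-0.42) and the death receptor FAS (-0.94) were among those below.

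Of all lists, p53 targets had the largest share below. Of 33 genes, 20 lay below the sum and 2 above, with a median of -0.50 against 0.01 for all genes. CDKN1A, the cell cycle inhibitor p21 (chromosome 6, 36676463 to 36687332), stood at 28.6, 26.3 and 23.4 CPM with DMSO and 16.4, 15.5 and 15.9 with venetoclax. It was at 45.3, 49.1 and 45.3 CPM with ERKi and 10.5, 12.5 and 10.4 with the combination. The order of the groups was ERKi, DMSO, venetoclax and combination, with no overlap, and the interaction was -1.35 (SE 0.121, adjusted p = 6.58e-07). MDM2, the ligase that removes p53, stood at 100.2, 96.1 and 102 CPM with the combination and from 137 to 183 in the other 9 libraries, an interaction of -0.71 (SE 0.0743, adjusted p = 2.91e-06). SESN1 (-0.75) and BTG2 (-0.87) lay below too.

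**Figure D4:**
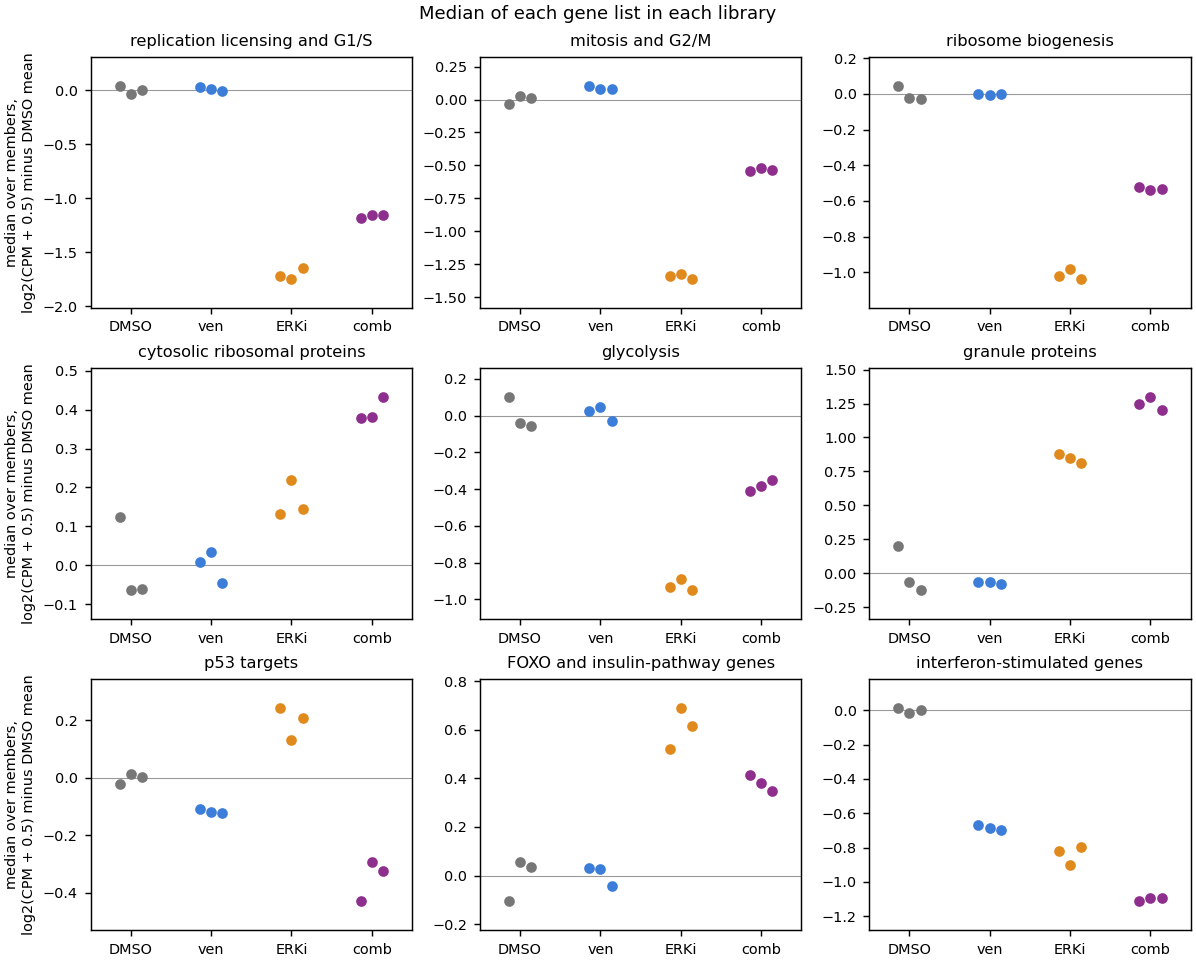
Median over the members of 9 gene lists of log2(CPM + 0.5) minus the DMSO mean, in each library (points; ven, venetoclax; comb, combination). The licensing, mitosis, ribosome biogenesis and glycolysis lists lie between ERKi and DMSO in the combination, and p53 targets lie from -0.43 to -0.29 in the combination and from 0.13 to 0.24 with ERKi.

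Of 17 genes read as the output of ERK, 9 lay above the sum and 3 below, with library totals 5 and 4. EGR1, an immediate early factor, was at 13.2, 16.4 and 15.5 CPM with DMSO, 15.4, 15 and 14.8 with venetoclax, 0.90, 0.46 and 0.88 with ERKi and 1.97, 2.33 and 1.62 with the combination. It stayed far under DMSO in both ERKi groups, with an interaction of 1.39 (SE 0.267, adjusted p = 0.000688). MYC stood at 335, 297 and 286 CPM with DMSO, 276, 302 and 277 with venetoclax, 159.9, 167 and 158 with ERKi and 243, 234 and 244 with the combination (0.67, SE 0.0792, adjusted p = 9.34e-06). ETV5, an ETS factor induced by ERK, was at 0.78.

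On the other side were DUSP6, the ERK phosphatase of the feedback loop, and PHLDA1. DUSP6 went from 2.24 CPM with ERKi to 1.27 with the combination in the mean (-0.91, SE 0.24, adjusted p = 0.00654), and its DMSO mean was 14.7. PHLDA1, a pleckstrin homology-like protein of the feedback genes, stood at 23.5, 32.6 and 27.2 CPM with DMSO, 28.8, 29.5 and 31.4 with venetoclax, 12, 10.8 and 10.9 with ERKi and 2.99, 2.49 and 2.51 with the combination. The combination was the lowest group, without overlap, with an interaction of -2.18 (SE 0.171, adjusted p = 2.06e-07).

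IL1B, the inflammatory cytokine, showed the same form: 44.9, 43.1 and 41.3 CPM with DMSO, 48.4, 52.5 and 48.5 with venetoclax, 24.3, 27.9 and 28.8 with ERKi and 9.06, 8.67 and 8.02 with the combination. Its interaction was -1.86 (SE 0.108, adjusted p = 8.93e-09). Among 25 genes of the cascade itself 7 lay above and 8 below, with the exchange factors SOS1 (-0.65) and SOS2 (-0.54) below. MAPK3, an ERK kinase gene, was at 0.18 and not called (adjusted p = 0.298).

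Of 27 monocyte and macrophage genes 10 lay below and 5 above, and of 14 granule genes 6 above and 1 below. The monocyte shares were 37.0% below and 18.5% above, against 18.0% and 21.3% of all genes. CX3CR1, the fractalkine receptor of monocytes (chromosome 3, 39263494 to 39292966), stood at 27.2, 26.6 and 26.3 CPM with DMSO, 26.2, 23.7 and 23.5 with venetoclax, 80.1, 81.4 and 75.4 with ERKi and 23.7, 23.7 and 26.2 with the combination. The ERKi libraries are above all others, and the ERKi step was 1.56 without venetoclax and 0.00 with it, an interaction of -1.56 (SE 0.0889, adjusted p = 8.84e-09). CD86, a costimulatory ligand, rose with ERKi in both settings but to 93.3 ± 7.78 CPM alone and 20.2 ± 1.28 with venetoclax (SD, n = 3). Its interaction was -1.69 (SE 0.139, adjusted p = 3.15e-07), and DMSO was at 10.1 ± 0.58 CPM. CD36, the scavenger receptor, was at -0.96.

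LYZ, the lysozyme of monocytes and granulocytes, lay above: 196, 214 and 216 CPM with DMSO, 179, 173 and 177 with venetoclax, 2427, 2513 and 2361 with ERKi and 3855, 4040 and 4076 with the combination. The combination was the highest group, 0.96 over the sum (SE 0.0604, adjusted p = 2.54e-08). ELANE, neutrophil elastase, was at 1.29, and MPO, myeloperoxidase, at 1.61, with adjusted p of 0.000203 and 0.000956. MPO stood at 0.85 to 3.41 CPM throughout, and the granule list's median fell from 0.49 to 0.29 without DMSO replicate 1.

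Among 24 myeloid transcription factors 10 lay above and 6 below, with library totals 6 and 8, and the median of 0.08 changes sign there (-0.03). IRF8, a factor of the monocyte lineage, was at 1697, 1729 and 1792 CPM with the combination and at 1102 to 1178 in the other 9 libraries, an interaction of 0.60 (SE 0.0498, adjusted p = 3.32e-07). GATA2 stood at 0.38, 0.42 and 0.56 CPM with ERKi and 1.55 to 2.63 in all other libraries. In the HOX-MEIS list 9 of 25 lay below and 2 above.

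Interferon-stimulated genes had a median venetoclax step of -0.71 without ERKi and -0.63 with it. Of 43 genes, 14 lay above the sum and 8 below, and with library totals 10 and 9. The shares were 32.6% above and 18.6% below, against 21.3% and 18.0% of all genes. HERC5, an ISG15 ligase, stood at 5.9, 5.32 and 6.21 CPM with DMSO, 4.29, 3.8 and 3.26 with venetoclax, 2.75, 2.22 and 2.14 with ERKi and 5.62, 8.61 and 8.8 with the combination. The libraries of each single drug were under DMSO, although the venetoclax step alone was not called (adjusted p = 0.29), and the combination overlapped or passed DMSO, with an interaction of 2.31 (SE 0.263, adjusted p = 6.91e-06). CMPK2, a nucleotide kinase induced by interferon, was at 1.17, with 27.9 to 32.0 CPM in the combination, 31.7 to 35.3 with DMSO and 20.2 to 21.8 with either drug alone. STAT2 was at -0.47. The interferon response element, searched on both strands, was present in 66.7% of the list's 33 promoters and 3.08% of all promoters.

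Of 39 autophagy and mitophagy genes 14 lay below and 3 above (median -0.14), of 38 lysosome and V-ATPase genes 13 and 7, and of 23 FOXO and insulin-pathway genes 11 and 5 (median -0.49, and -0.39 without DMSO replicate 1). The lysosome shares were 34.2% below and 18.4% above, against 18.0% and 21.3% of all genes. Of 17 receptor tyrosine kinases and adaptors 7 lay below and none above: IRS1 (-0.84), GAB1 (-0.87), MERTK (-1.46) and FLT3 (-0.37) among them. MERTK, a receptor for dying cells, stood at 22.1, 23.1 and 23.4 CPM with ERKi and 7.19, 6.93 and 7.12 with the combination, against 2.69 to 4.01 in the DMSO and venetoclax libraries. FLT3, the receptor of early myeloid cells, was at 386 CPM with ERKi and 296 with the combination in the mean, over 169 with DMSO. TXNIP, an inhibitor of thioredoxin and glucose uptake, lay above at 0.61 (SE 0.0524, adjusted p = 4.26e-07). It stood at 1029, 1045 and 1047 CPM with the combination and 678 to 712 with ERKi.

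Some genes moved only when both drugs were present. A departure of at least 2-fold with both single effects within 0.3 of 0 was found for 20 genes above and 36 below, and the first count was 12 without DMSO replicate 1 and 13 with library totals. PCOLCE2, an enhancer of procollagen processing (chromosome 3, 142817874 to 142889083), stood at 3.43, 3.77 and 4.22 CPM with DMSO, 3.64, 4.01 and 2.91 with venetoclax, 3.88, 4.11 and 4.15 with ERKi and 16.7, 17.7 and 17.7 with the combination. The first 3 groups overlap and the combination is far above them, with an interaction of 2.21 (SE 0.19, adjusted p = 4.51e-07). TSPOAP1 (1.29) and GYPC (1.10), a glycophorin of the red cell membrane, had the same form.

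Below, AHR, the aryl hydrocarbon receptor (chromosome 7, 17298652 to 17346147), was at 12.5, 11.7 and 9.85 CPM with the combination and 24.8 to 34.8 elsewhere (-1.51, SE 0.154, adjusted p = 2.38e-06). PRR16 (-2.76), TGFBR3, the betaglycan co-receptor (-1.53), and ZNF518B (-1.60) had the same form.

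Several of the largest departures were reversals of the ERKi effect. GHR, the growth hormone receptor (chromosome 5, 42423439 to 42721878), stood at 13.5, 16 and 14.9 CPM with DMSO, 16.5, 16 and 16.2 with venetoclax, 46.3, 48.3 and 43.3 with ERKi and 7.74, 9.05 and 8.43 with the combination. ERKi alone raised it and the pair of drugs took it under every DMSO library, with an interaction of -2.59 (SE 0.116, adjusted p = 1.05e-09). THBS4, a thrombospondin (chromosome 5, 79991332 to 80083287), went the other way, at 43.4, 37.9 and 41.0 CPM with DMSO, 33.1, 29.2 and 34.9 with venetoclax, 29.5, 23.1 and 26.8 with ERKi and 85.6, 86.2 and 81.5 with the combination. It fell with ERKi and stood above all other libraries with both drugs, an interaction of 2.00 (SE 0.116, adjusted p = 8.93e-09).

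Others were larger effects in the same direction. LPL, lipoprotein lipase, stood at 4.88, 4.99 and 4.74 CPM with DMSO, 4.29, 4.01 and 4.54 with venetoclax, 9, 8.08 and 8.38 with ERKi and 31.1, 30.1 and 28.9 with the combination (2.01, SE 0.135, adjusted p = 4.65e-08). PRLR, the prolactin receptor, was at 14.9, 14.9 and 14.2 CPM with ERKi and 44.9, 42.1 and 44.2 with the combination (1.74), over 1.42 to 3.65 without ERKi. ID1, an inhibitor of basic helix-loop-helix factors, was at 38 to 39.2 CPM with the combination and 7.25 to 11.8 elsewhere (1.69). Genes in which an at least 2-fold ERKi step came to within 0.3 of 0 with venetoclax included ANTXR2 (-1.60), AMOT (-1.62), AK5 (-1.91) and JAZF1 (-1.55) below, and AURKB (1.24), TRAIP (1.20), WDR90 (1.28) and MATK (1.47) above. With venetoclax the step was still called for AURKB (-0.29, adjusted p = 0.00596) and, in the opposite direction, for AMOT (-0.19, adjusted p = 0.041).

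4 of the largest values rest on genes whose replicates varied or, for CDH6, on few reads in the libraries without ERKi. THBS1, a thrombospondin, stood at 0.39, 4.80 and 5.36 CPM with DMSO, 5.14, 4.97 and 10.7 with venetoclax, 10.8, 6.88 and 11.3 with ERKi and 0.15, 0.32 and 0.47 with the combination (-5.88, SE 0.869, adjusted p = 7.91e-05). DMSO replicate 1 lies with the combination here. COL1A2, a fibrillar collagen, had 5.85, 19.1 and 13.6 CPM with DMSO, 10.7, 10.3 and 6.95 with venetoclax, 8.05, 7.57 and 14.7 with ERKi and 0.61, 0.97 and 0.68 with the combination (-3.28, SE 0.565, adjusted p = 0.000293). The sum of the 10 fibroblast markers was 2.92 to 3.39 CPM with the combination and 7.73 to 38.0 in the other libraries, with 5 of the 10 under 1 CPM throughout. Its part in the result was not tested. AATF had 23.6 CPM in DMSO replicate 3 and 2.87 to 4.40 in the others of that group, and its interaction of 3.94 had an SE of 0.862. Without DMSO replicate 3 it was 2.44. CDH6, a cadherin, was at 33.6, 37.0 and 33.2 CPM with the combination, 3.79, 4.80 and 4.33 with ERKi and 0.05 to 0.52 without ERKi (3.31, SE 0.605).

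The summed levels of RNAs that lack a poly(A) tail, and of mitochondrial RNAs, were higher in the combination libraries than in the other 9. Mitochondrial rRNA held 3.21% to 3.36% of counts there, 1.28% to 1.49% with ERKi and 0.868% to 0.929% in the DMSO and venetoclax libraries. Of 96 tested RNAs outside the poly(A) pool, 22 lay above the sum and none below, and of 68 snoRNA genes 11 (16.2%) and 0. These shares above are near or under the 21.3% of all genes, while none lay below against 18.0% of all genes. The medians were 0.40 and 0.33. The snoRNA genes had a median SE of 0.579, near the 0.562 of the lowest of 4 equal CPM classes. In that class 4.61% of genes lay above and 6.48% below. Most members of both sets were not called. Named after their values were seen, RNR1 and RNR2, the mitochondrial rRNAs, were at 2.25 and 1.11 (adjusted p = 1.86e-09 and 4e-09), RN7SK at 2.35 and RNA45SN4, a precursor of cytosolic rRNA, at 5.07. RNA45SN4 stood at 2.08, 4.90 and 3.65 CPM with DMSO, 2.30, 2.23 and 2.42 with venetoclax, 6.16, 2.72 and 4.38 with ERKi and 74.0, 93.3 and 124 with the combination. The part of these pools in the other results was not tested. Scaling without mitochondrial and non-polyadenylated RNAs, chosen after the data were seen, gave 3103 genes above the sum and 2830 below.

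**Figure D5:**
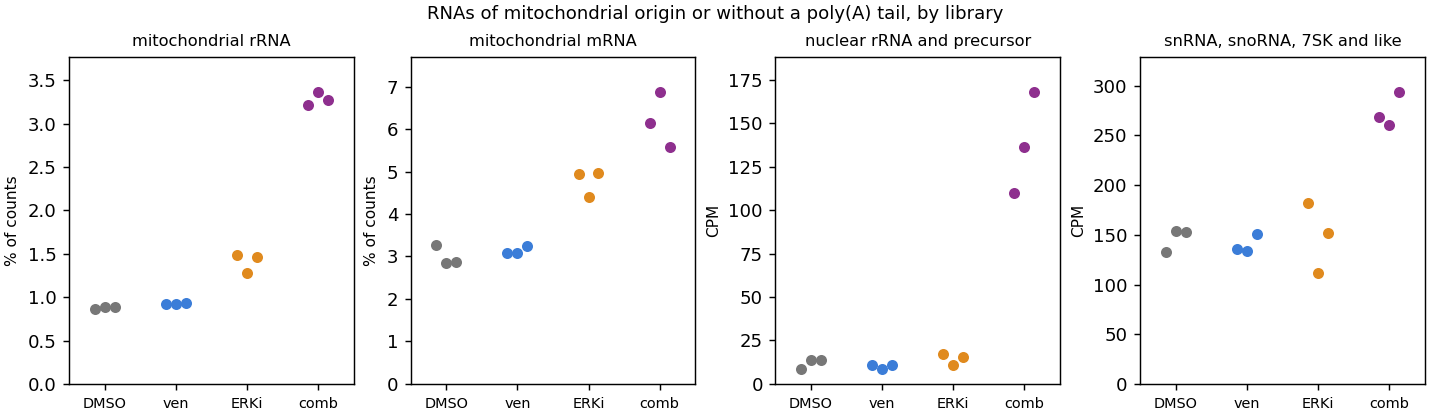
Share of counts in mitochondrial rRNA and mRNA (%) and summed CPM of nuclear rRNA with its precursor and of snRNA, snoRNA, 7SK and like RNAs, in each library (points; ven, venetoclax; comb, combination). In all 4 panels the 3 combination libraries lie above the other 9.

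Calls followed the depth of a gene, and their share differed by its kind. Of 4 equal classes by mean CPM, in the highest 35.3% lay above the sum and 23.0% below, and in the lowest 4.61% and 6.48%, where the median SE was 0.562 against 0.0777. Protein-coding genes were called above in 24.4% and below in 20.5%, and lncRNAs in 6.33% and 6.62%. Their median SEs were 0.114 and 0.465, so kind was not separated from depth. By median transcript length, which GENCODE gives for 88.4% of the tested genes, the longest of 5 equal classes had 17.9% above and 24.0% below, and the middle class 26.5% and 16.1%. The part of depth and of length in the list counts was not tested.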

How the data were processed

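Poly(A) RNA of 12 OCI-AML3 libraries was sequenced, and the deposited table holds raw counts per gene symbol, whole numbers with no normalization by the authors. HISAT2, HTSeq, DESeq2 and hg38 are named in the submitters' processing notes. Versions, annotation and strand setting are not given in the sources used. Antisense and overlapping genes may therefore share reads. The table has 0 rows without a gene name and 0 unused columns.

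Genes passing edgeR's filterByExpr (10 counts, 15 in total) were kept, 15173 of 54628. Group means were fitted over all 12 libraries with edgeR 4.0.16 (R 4.3.3), TMM factors and a prior count of 0.125, leaving 8 residual degrees of freedom. The interaction and the 4 single steps were tested by the quasi-likelihood test with Benjamini-Hochberg adjustment over all tested genes at 0.05; every adjusted p in the text is from this fit. An SE is the fold change divided by the root of F. The common biological coefficient of variation was 0.0727. Printed CPM values carry counting error and library spread, and their SD is over 3 libraries.

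The 53 gene lists, the comparisons and the genes named were chosen with earlier results of these data known. Named genes are the 12 with the largest interaction on each side among protein-coding genes with a mean of at least 5 CPM that were called with all libraries and in each of 12 fits without 1 library; up to 5 per pattern and side; up to 4 called members per list; and 27 fixed genes. Some genes this rule names are not reported here. Promoters are from RefSeq GRCh38.p14. On simulated counts for 14958 genes the interaction test found 62.7% of the genes set to change 1.5-fold, 62.7% of those set to 2-fold and 95.5% of those set to 4-fold, and made 7 false calls. The simulated spread followed its trend over expression level, without gene-wise spread or an outlying library. Far fewer genes were changed than were called in the data, so these rates need not carry over. Alternatives were RLE, upper quartile and library-total scaling, DESeq2 1.42.0, limma-voom 3.58.1, no filter, 1 CPM in 3 libraries, a replicate block, a prior count of 2, an adjusted p under 0.01, the linear sum and each library left out. Figures were drawn with matplotlib 3.10.9.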

Additional observations from a re-analysis of the deposited data

Results flagged for a closer look

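In 9 of the genes with the largest departures, the ERKi step was called in one direction without venetoclax and in the opposite direction with it. 4 lay above the sum: AATF at 3.94, THBS4 at 2.00, WNT7B at 2.00 and IGSF10 at 1.78. 5 lay below: THBS1 at -5.88, GHR at -2.59, CACNB4 at -2.45, PLPP3 at -2.26 and HTR7 at -2.01. The difference between both steps is the interaction tested by edgeR's quasi-likelihood test in the report. AATF and THBS1 varied within the DMSO group: AATF was 2.44 without DMSO replicate 3, and THBS1 had 0.39 CPM in DMSO replicate 1 against 4.80 and 5.36 in the others.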

How the results depend on the processing

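The counts of genes above and below the sum kept within 1.5 times under all scalings, tools and filters tried, except at an adjusted p under 0.01, where 1723 genes lay below. There the opposite, smaller and larger patterns held 253, 1241 and 456 genes. Genes that moved only with both drugs, above the sum, numbered 20 with all libraries, 13 with library totals and 12 to 22 with each library left out, the lowest without DMSO replicate 1. The replicate block gave 3092 above and 2642 below. Over 18 same-numbered pairs, r across the tested genes ran from -0.07 to 0.09. Because only 4 of 12 libraries correlated best with their own number, the numbers were not taken as pairs. Such an r cannot show a trace in a few genes. KRT19, a keratin gene, was at 0.75, 0.66 and 1.25 CPM in replicate 2 of DMSO, venetoclax and ERKi. It was at 0 CPM in all other libraries, combination replicate 2 included, and KRT5 had the same form at lower levels. The source of this trace was not tested. None of 259 named genes reversed, and 244 kept their side and direction in every setting. Many of them were chosen because their call held without each library, so this count was partly fixed by the choice. Of all 5951 called genes, 4433 kept call and direction in every fit that left out 1 library. Genes in the lowest of 4 equal CPM classes, with a median SE of 0.562, are limited by depth.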

Other observations

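Over all tested genes 21.3% lay above the sum and 18.0% below. Of 31 genes of the tricarboxylic acid cycle and pyruvate dehydrogenase 13 lay above the sum and 2 below, but 9 and 8 with library totals. Of 36 translation initiation factors 14 lay above and 5 below, of 24 genes of endoplasmic reticulum folding 10 and 3, and of 19 E2F factors and pocket proteins 8 and 2. These counts were 10 and 8, 6 and 4, and 7 and 2 with library totals. Of 21 leukocyte integrin and adhesion genes 8 lay below the sum and 2 above, with a median of -0.28, and of 38 cytokine receptor and JAK-STAT genes 12 and 5. Of 31 NF-kB and inflammatory genes 11 lay below and 7 above, and the median changes sign with library totals (-0.10). Of 28 genes of fatty acid oxidation and PPAR targets 12 lay above and 6 below, but 6 and 9 with library totals. Of 30 cholesterol and fatty acid synthesis genes 10 lay above and 3 below, but 6 and 5 with library totals. Heat shock and CCT chaperones had 11 above and 7 below of 29, and 9 and 9 with library totals. Replication-dependent histones split evenly, 5 and 5 of 23, and 21.7% on each side is near the shares of all genes. Iron handling had 5 above and 4 below of 20, and 1 and 6 with library totals.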
